A study of Sus scrofa with 4 samples.

Results

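The 9 genes described here encode the peroxisome proliferator-activated receptors PPARG, PPARA and PPARD, the retinoid X receptors RXRA, RXRB and RXRG, and the coregulators NCOR1, MED1 and NCOA1. They were chosen by gene symbol among the 16192 protein-coding genes (mRNAs) with a measured level, and each symbol matched 1 gene. The cells were subcutaneous preadipocytes of Chinese Erhualian piglets, male by the labels and 5 days old by the study's methods, induced to become adipocytes in culture. Confluent cells (D0) received dexamethasone, 3-isobutyl-1-methylxanthine and insulin until D2, insulin alone until D4 and growth medium from then to D8. At each of the 4 stages, equal amounts of RNA from 3 piglets were pooled into 1 library, so the 4 libraries have no replicates. A difference between stages was therefore a difference between 2 libraries, no test compares stages, and stage and library cannot be told apart.

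PPARs are nuclear receptors that are activated by fatty acids and their derivatives, and they bind DNA as heterodimers with an RXR, the receptor of 9-cis-retinoic acid. PPARG is required for fat cells to form, PPARA is best known for control of fatty acid oxidation in the liver, and PPARD is expressed in most tissues. NCOR1 is a corepressor that recruits histone deacetylases to unliganded receptors, NCOA1 is a histone acetyltransferase coactivator, and MED1 is the Mediator subunit through which PPARG contacts the transcription machinery.

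mRNA levels were given as FPKM, the fragments counted on a gene divided by its length in kilobases and by the size of the library, which allows levels of different genes to be compared per length. The libraries held between 54128151 and 75387428 fragments. The ranges in parentheses below are 95% intervals for counting error, which do not cover variation between animals or cultures. Genes with FPKM of at least 1 in at least 3 libraries were taken as reliably expressed, and there were 9191 of them, including 8 of the 9 members. A gene was called between 2 libraries when its log2(FPKM + 0.01) differed by at least 1, that is 2-fold.

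PPARG had an FPKM of 2.95 (2.73 to 3.19) at D0, 26.4 (25.7 to 27.3) at D2, 51.9 (50.9 to 52.9) at D4 and 25.8 (25.0 to 26.6) at D8. It was lowest before induction and highest at D4, and the D2 and D8 levels overlapped within counting error. Between D2 and D0 the level was 8.92-fold higher, a log2 ratio of 3.16 (3.04 to 3.28), which ranked 49 from the highest among the 9191 reliably expressed mRNAs. The D4 library was 17.5-fold above D0 (log2 ratio 4.13) and 1.96-fold above D2 (0.97, just short of the call). From D4 to D8 the level was 2.01-fold lower, and the log2 ratio of -1.01 (-1.06 to -0.96) sat at the threshold. This call was lost with a pseudocount of 1 (-0.98) and after median-ratio scaling (-0.80). At D8 PPARG was still 8.69-fold above D0 (log2 ratio 3.12). The values are totals for the gene at chr13:68301566-68433951 (plus strand), and its isoforms were not separated. In bulk cultures such as these, fewer cells of a type and less RNA per cell cannot be told apart.

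PPARD, at chr7:31222533-31295221 (plus strand), had an FPKM of 1.38 (D0), 3.13 (D2), 5.95 (D4) and 2.25 (D8). As deposited, its stages stood in the order of those of PPARG, from D0 as the lowest through D8 and D2 to D4. For PPARG the order of D8 and D2 was not settled. After median-ratio scaling its log2 ratio against D0 was 3.27 at D8 and 3.19 at D2, beside 0.85 and 1.21 for PPARD. PPARD was called higher between D2 and D0, with a log2 ratio of 1.17 (0.83 to 1.53), and between D4 and D0 (2.10, 1.81 to 2.42). It was called lower between D8 and D4 (-1.40, -1.69 to -1.12). The D2 call was lost with a pseudocount of 1 (0.79). The D8 level was 1.62-fold that of D0, short of the call (log2 ratio 0.70).

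PPARA, at chr5:3302755-3321091 (minus strand), had an FPKM of 1.27 (1.07 to 1.51) at D0, 0.957 (0.752 to 1.20) at D2, 1.92 (1.67 to 2.21) at D4 and 1.42 (1.16 to 1.71) at D8. D4 was highest and D2 lowest, and the intervals of the D0, D2 and D8 libraries overlapped, as did those of D4 and D8. The fragment numbers behind these levels were low, at least 135, 74, 201 and 108. The ratio of D4 over D2 was 1.998, with a log2 interval of 0.61 to 1.41, so it was not called. No other comparison of PPARA reached 2-fold.

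**Figure D1:**
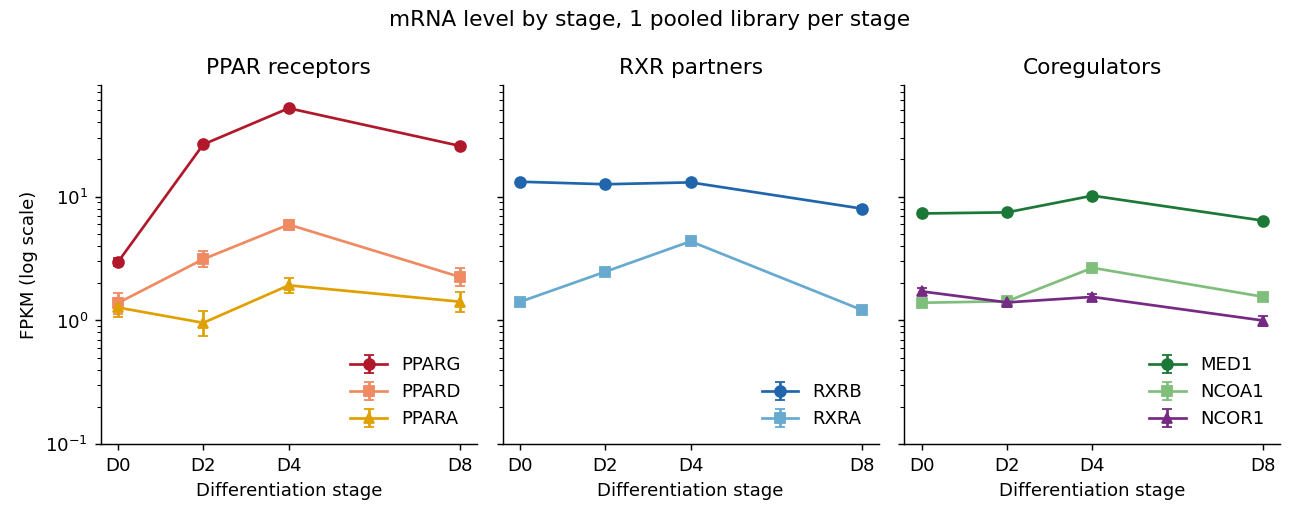
FPKM on a log axis against differentiation stage (1 pooled library each) for the PPARs, RXRs and coregulators, with bars for the 95% counting interval. PPARG goes from 2.95 at D0 to 51.9 at D4, while RXRB stays between 8.02 and 13.2. RXRG, at or near 0, is not drawn.

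Among the partners, RXRB was the most abundant RXR in all 4 libraries, with an FPKM of 13.2 (D0), 12.6 (D2), 13.1 (D4) and 8.02 (D8). The gene lies at chr7:25236005-25242842 on the minus strand. The first 3 levels overlapped within counting error and the D8 level lay below them, with a log2 ratio of -0.70 (-0.80 to -0.61) between D8 and D4. RXRB was called in none of the 5 comparisons.

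RXRA, at chr1:273698842-273797622 (plus strand), had an FPKM of 1.41 (D0), 2.47 (D2), 4.36 (D4) and 1.22 (D8). As deposited it was thus highest at D4 and lowest at D8. The log2 ratio of D8 over D0 was -0.21 (-0.35 to -0.07), and -0.06 after median-ratio scaling. The D4 level was 3.08-fold above D0, a log2 ratio of 1.62 (1.53 to 1.73). Between D8 and D4 it was 3.56-fold lower, and this log2 ratio of -1.83 (-1.96 to -1.72) was the lowest of all members, ranking 107 from the lowest of the 9191 mRNAs.

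RXRG, at chr4:85158313-85356950 (plus strand), was not detectable at this depth. It had an FPKM of 0.00867 at D4, from at least 1 fragment, the smallest number that the value allows. It was at 0 in the D0, D2 and D8 libraries. Taking 3 fragments as the limit that a count of 0 allows, its FPKM could be up to 0.0257 at D0, 0.0352 at D2 and 0.0358 at D8, and the upper ends of the exact 95% intervals were 0.0316, 0.0433 and 0.0440. These limits would be lower if the fragment number at D4 was higher.

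The makeup of the heterodimer partners at the mRNA level can be read from the summed FPKM of each family. The PPAR sum was 5.61 (D0), 30.5 (D2), 59.8 (D4) and 29.4 (D8), while the RXR sum was 14.6, 15.1, 17.4 and 9.24. PPAR over RXR mRNA was therefore 0.383 (D0), 2.02 (D2), 3.43 (D4) and 3.19 (D8). RXR mRNA exceeded PPAR mRNA before induction only, and the ratio at D8 stayed near that at D4 as both sums were lower. PPARG made up 52.7% of the PPAR sum at D0 and 86.6% to 87.5% in the later libraries. RXRB made up 90.4% of the RXR sum at D0 and 74.9% at D4, where RXRA took 25.0%. Protein levels were not measured here.

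**Figure D2:**
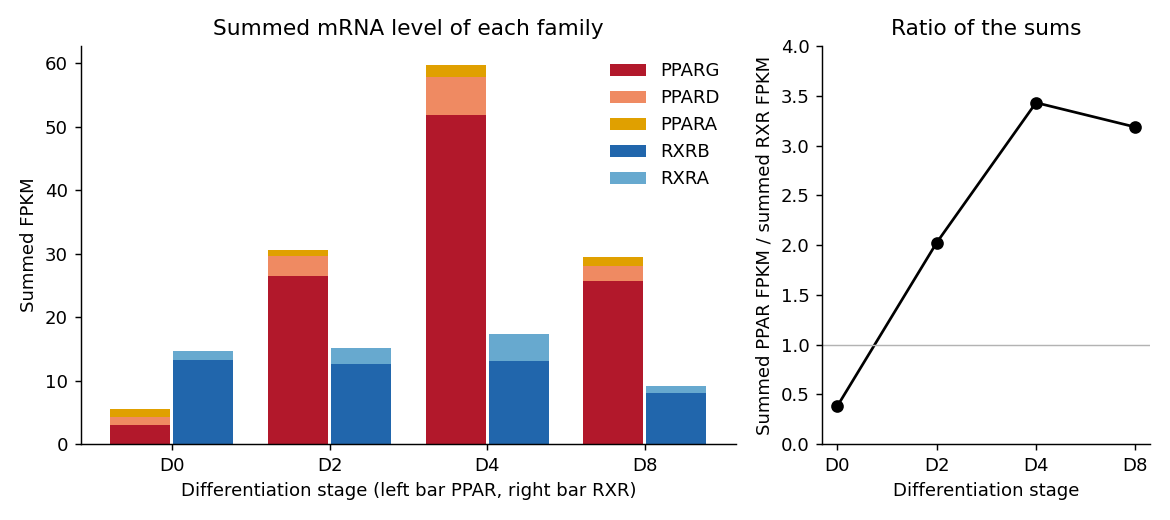
Left, summed FPKM of the PPAR genes (left bar of each pair) and RXR genes (right bar) at each stage, stacked by gene; right, the ratio of the sums, with a line at 1. The PPAR sum passes the RXR sum between D0 and D2, and the ratio is 3.43 at D4 and 3.19 at D8.

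The coregulators differed by less than 2-fold between any of the stages compared. NCOR1, at chr12:59256868-59392564 (plus strand), had an FPKM of 1.72 (D0), 1.40 (D2), 1.55 (D4) and 0.998 (D8). It was highest before induction and lowest at D8, with a log2 ratio of -0.78 (-0.95 to -0.62) between D8 and D0. MED1, at chr12:22830405-22872420 (plus strand), had an FPKM of 7.32 (D0), 7.47 (D2), 10.2 (D4) and 6.40 (D8). The D0 and D2 levels overlapped within counting error, and D4 was highest. NCOA1, at chr3:113997214-114251080 (minus strand), had an FPKM of 1.39 (D0), 1.43 (D2), 2.66 (D4) and 1.55 (D8). D4 was highest, at a log2 ratio of 0.89 (0.77 to 1.03) over D2, and D8 was above D0 by 0.16 (0.02 to 0.30). None of the coregulators was called in any of the 5 comparisons. MED1 overlaps CDK12 by 993 bases and NCOR1 overlaps PIGL by 16 bases, in each case on the opposite strand. The library kit keeps strand, but whether counting used it is not given in the sources used here.

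Counted over the 8 reliably expressed members, 2 were called between D2 and D0, both higher (PPARG and PPARD), where 16.8% of reliably expressed mRNAs were called. None was called between D4 and D2, where 5.08% of mRNAs were (4.24% higher and 0.838% lower). Between D8 and D4, 3 members were called, all lower (RXRA, PPARD and PPARG), against 14.5% of mRNAs, of which 30.5% were higher and the rest lower. The same 3 genes were called higher in the D4 library than in that of D0, against 19.2%, and only PPARG was called in the D8 library against D0, where 7.28% of mRNAs were. After median-ratio scaling, 51.9% of the mRNAs called between D8 and D4 were higher, and between D8 and D0 the share moved from 49.5% to 66.1%.

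The members shared their direction at 2 steps, although most differences were under 2-fold. Both steps, and the highest library given below, rest on the single D4 library, so they are not separate observations. All 8 had a positive log2 ratio between D4 and D2, with a median of 0.85 beside 0.09 for all reliably expressed mRNAs. The ratio of RXRB, 0.05 (-0.03 to 0.13), turned to -0.04 and -0.02 under the 2 other scalings. All 8 had a negative log2 ratio between D8 and D4, with a median of -0.74 beside -0.21. Most mRNAs were thus lower at that step too, and all 8 members lay below the median of all. D4 was the highest library for 6 of 8 members, all but RXRB and NCOR1, and for 37.3% of the 9191 mRNAs.

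**Figure D3:**
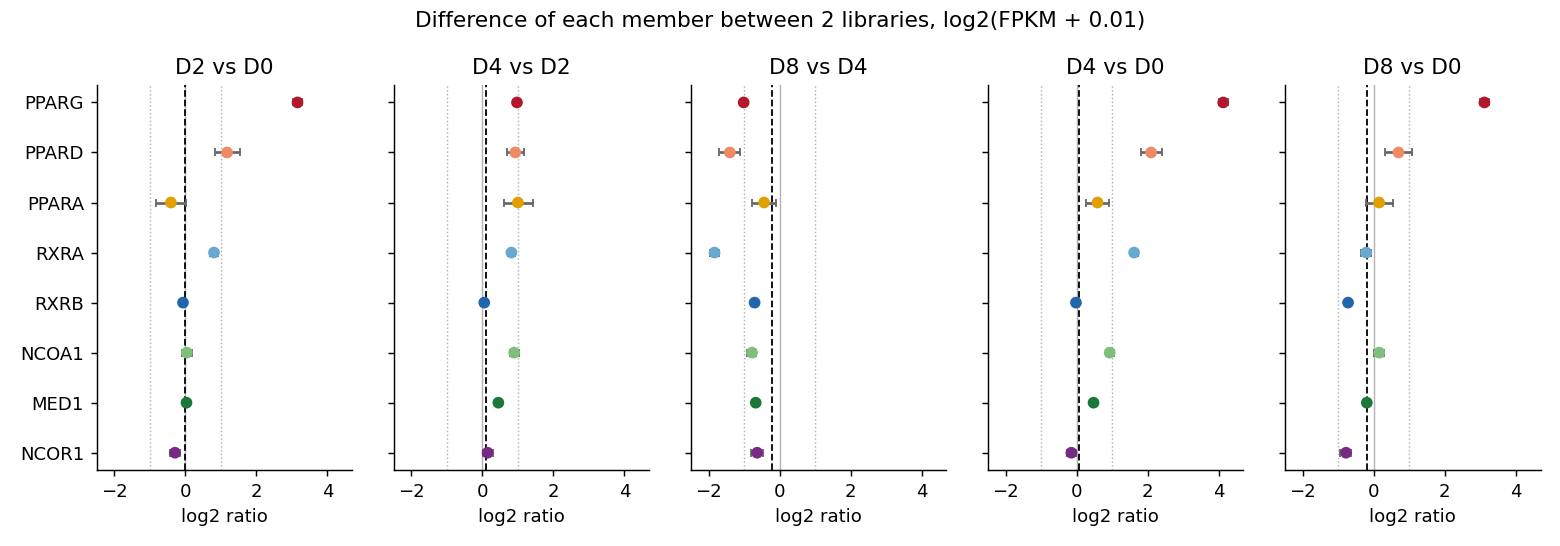
Log2 ratio of each reliably expressed member in the 5 comparisons, with bars for the 95% counting interval, dotted lines at 2-fold and a dashed line at the median of all reliably expressed mRNAs. PPARG lies far to the right in the 3 comparisons with D0, and all 8 members lie left of the dashed line between D8 and D4.

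Cell type markers were summed to set the members' levels beside the makeup of the cultures. The 8 adipocyte markers summed to an FPKM of 105 (D0), 374 (D2), 1549 (D4) and 2029 (D8), and the 10 preadipocyte and fibroblast markers to 1135, 2275, 3037 and 2298, with none at 0. A few genes carried these sums. FABP4 went from 853 at D4 to 1557 at D8. Over the 6 adipocyte markers that passed the filter, the median log2 ratio between D8 and D4 was -0.49, with none called higher and 2 lower (PLIN1 and LIPE). Over all 8 without the filter, 2 were higher and 2 lower, beside 11% and 16.7% of all mRNAs, with a median of -0.06. Those higher, named after their values were seen, were CIDEC (5.01 at D4 and 54.6 at D8) and LEP (0.0269 and 0.314). COL3A1, a fibrillar collagen, was at 491, 1286, 2058 and 1624, while only 3 of the 9 preadipocyte markers that passed were above D0 at D8, with a median of -0.29. Of the adipocyte markers, 7 are themselves known PPARG targets. The 6 smooth muscle markers summed to 6767, 706, 521 and 5125, the reverse of the order of PPARG as deposited. Of them, 5 were called lower between D2 and D0 and higher between D8 and D4, with ACTA2 at 2907, 324, 225 and 2762 and DES at 436, 37.7, 4.05 and 35.7. MYH11, at 0.633, 0.350, 0.341 and 0.289, did not pass the filter and was 2-fold different at neither step. DES and MYH11 did not stand in the order of the sum. Sums of the 6 endothelial markers were between 1.16 and 2.74 (TEK, CDH5, CLDN5 and VWF at 0 in at least 1 library), with PECAM1 carrying most of each sum. The 6 macrophage markers summed to 3.81, 7.67, 9.04 and 5.43, with CD14 (3.14, 5.64, 7.54 and 2.78) carrying most of each sum. These sums stood in the order of stages of PPARG as deposited, but no single marker did. CD163 was at 0.270, 1.42, 1.01 and 1.38, and AIF1 at 0.221, 0.273, 0.225 and 1.05. CD14 and CD163 were called higher between D4 and D0 (CD163 not with a pseudocount of 1), and CSF1R was at 0 at D8. PTPRC, which marks all leukocytes, was at most 0.0712. The 3 skeletal muscle markers measured summed to between 0.104 and 0.507 (MYOG and CKM at 0 in at least 1 library). The 2 Schwann cell markers were both at 0 at D2 and D8 and summed to at most 0.311. The 3 epithelial markers summed to 45.1, 109, 181 and 276, nearly all of it from KRT5. The part of these shifts in the PPARG, PPARD and RXRA differences was not tested.

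By level, PPARG moved from the third place among the members at D0 to the first place afterwards. At D0 the order ran from RXRB through MED1, PPARG and NCOR1 to RXRA, NCOA1, PPARD and PPARA, and the intervals of neighbours among the last 4 overlapped. From D2 on PPARG was followed by RXRB, MED1 and PPARD in that order. At D2 only NCOA1 and NCOR1 were neighbours with overlapping intervals, at D4 no neighbours overlapped, and at D8 NCOA1, PPARA and RXRA followed each other with overlapping intervals.

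To describe how alike the profiles were, the Euclidean distance between log2(FPKM + 0.01) values centred on each gene's own mean was computed over the 4 libraries. The most alike pair of members was RXRB and NCOR1, at a distance of 0.17, while PPARD and RXRA were 0.65 apart. The member nearest to PPARG was PPARD, at 1.89. Within a distance of 0.5 lay 5 mRNAs for PPARG, 2248 for RXRB and 3193 for MED1, but this distance grows with the size of the differences, so that members with small differences have more neighbours. The nearest to PPARG were ACSS3, a mitochondrial acyl-CoA synthetase (0.16), SNTB1, a syntrophin (0.23), and MGST1, a microsomal glutathione transferase (0.39). ACSS3 had an FPKM of 0.189 (D0), 1.65 (D2), 3.03 (D4) and 1.71 (D8). The nearest to PPARD were ZBTB43, CHST3 and MCCC2, and those to RXRA were NFKBIA, QPCTL and FGFR1. CARM1, SZRD1 and IL27RA were nearest to RXRB, PATL1, HYOU1 and NEURL4 to NCOR1, and TPGS2, PDE12 and MDM4 to MED1. For NCOA1 they were CHD9, PIGM and LOC110260386, and for PPARA they were HMGB2, OGG1 and DACT1. By Pearson distance 2 of these 24 genes, SNTB1 and TPGS2, were again among the nearest 3.

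Circular RNAs (circRNAs), which are recognised by reads across a back-splice junction, were listed inside 4 of the 9 genes, with 15 of the 8623 circRNAs of the series. The files list a circRNA from 2 junction reads on, so a circRNA at 0 was not listed in that library rather than shown to be absent. PPARG had 2 circRNAs with a common start, chr13:68383628-68394776 and chr13:68383628-68407085. The first had 7 junction reads at D4 and 19 at D8, the second 7 and 3, and neither was listed at D0 or D2. Together they had 14 reads at D4 and 22 at D8. Scaled by mapped reads, the sum was higher at D8 by a log2 ratio of 1.15 (0.12 to 2.23), while the FPKM of the whole gene was lower. Per 1000 fragments of the gene, taken at the smallest number that the values allow, the junction reads were 1.26 at D4 and 5.47 at D8, a 4.35-fold difference (2.13 to 9.19).

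NCOR1 had 9 circRNAs, of which 4 shared a start at position 59273100 of chromosome 12. The junction reads of all 9 summed to 27 (D0), 74 (D2), 84 (D4) and 15 (D8). The middle stages were thus highest for the circRNAs, while the FPKM of the gene was highest at D0. Between D2 and D0 the log2 ratio of scaled junction reads was 1.63 (0.98 to 2.33), and between D8 and D4 it was -1.98 (-2.88 to -1.18). Per 1000 fragments of NCOR1 there were 25.0 (D0), 115 (D2), 87.5 (D4) and 33.3 (D8) of these reads. The most read was chr12:59273100-59296987, with 2, 17, 32 and 6 junction reads, followed by chr12:59319172-59323398 with 7, 16, 21 and 5. The circRNA chr12:59319172-59331703 had 6, 13, 13 and 0 reads. At the shared start, chr12:59273100-59308104 had 0, 12, 7 and 0 reads, and chr12:59273100-59342844 had 10 reads at D2 only. MED1 had 3 circRNAs, with 16 reads in all, listed at D2 only. NCOA1 had 1, with 8 reads, listed at D4 only. No circRNA was listed within PPARA, PPARD or the RXR genes.

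**Figure D4:**
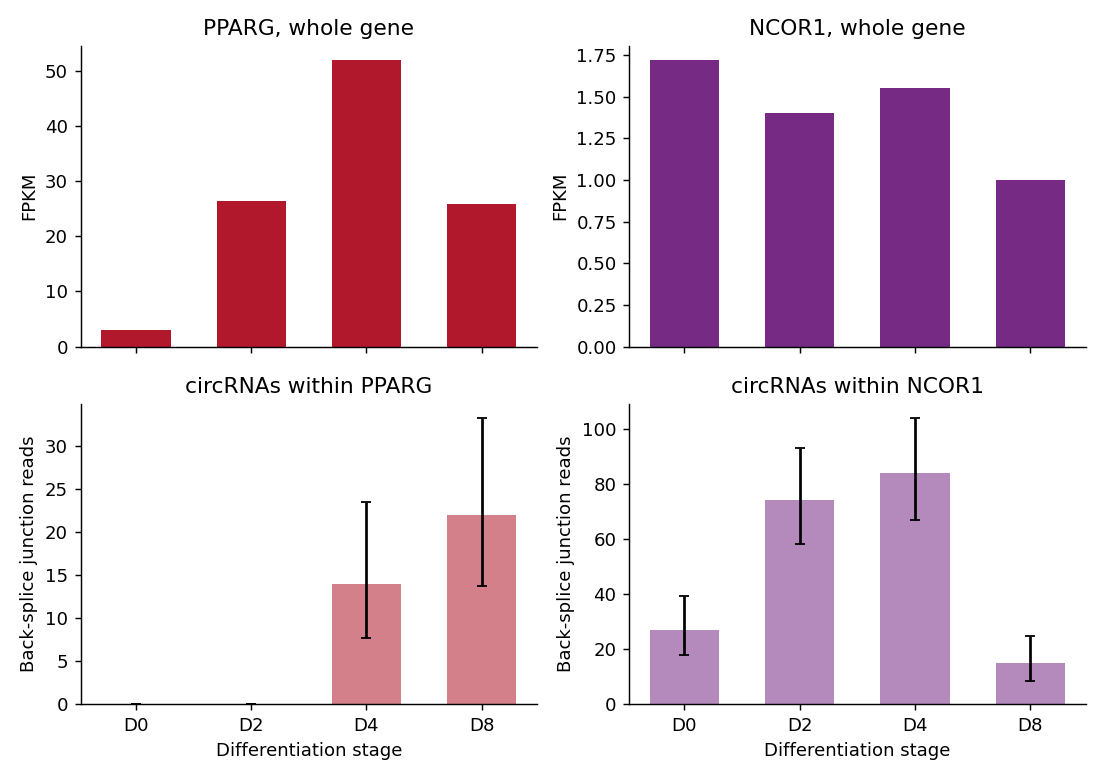
FPKM of the whole gene (top) and summed back-splice junction reads of its circRNAs (bottom, with 95% counting intervals) for PPARG and NCOR1 at each stage. The PPARG junction reads are 14 at D4 and 22 at D8 while the gene goes from 51.9 to 25.8, and the NCOR1 junction reads are highest at D4 with 84. Bars at 0 mark circRNAs that were not listed.

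Genes around the receptors were described by 7 lists, from ligands to targets, by counts and medians over the genes that passed the expression filter. The filter can itself drop genes that differ, so counts over all measured genes, with a 0 set to 3 fragments, are given beside them. These were chosen after seeing the data. Beside them, the shares of reliably expressed mRNAs called higher were 6.67% at D2, 10.4% at D4 and 3.6% at D8, each against D0. The shares called lower were 10.1%, 8.81% and 3.68%, and between D8 and D4 they were 4.43% higher and 10.1% lower. Counts over all measured genes are set beside shares of all 16192 mRNAs, taken without the filter and without setting a 0 to 3 fragments.

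Of the genes for ligand synthesis and handling, 16 were measured and 11 passed the filter. Between D4 and D0, 5 of them were called higher and 1 lower, with a median log2 ratio of 0.39 beside 0.06 for all reliably expressed mRNAs. Over all 16 genes, 5 were higher and 3 lower, beside 17.6% and 14.7% of all mRNAs, with a median of 0. The further 2 were the prostaglandin synthases PTGS2 and PTGS1, named after their values were seen, at 3.79 and 1.74 at D0 and 0.220 and 0.435 at D4. ALDH1A1, which oxidises retinaldehyde to retinoic acid, had an FPKM of 0.675 (D0), 36.9 (D2), 34.4 (D4) and 13.7 (D8). FABP5, the fatty acid binding protein known to deliver ligands to PPARD, had 63.1, 141, 589 and 555. The cellular retinoic acid binding proteins went in opposite directions. CRABP1 had 0.502, 1.68, 3.43 and 1.05, highest at D4 as PPARG was. With a pseudocount of 1, its calls against D0 at D2 and D8 were lost (log2 ratios 0.84 and 0.45). CRABP2 had 32.8, 1.09, 1.11 and 29.9, a 26.8-fold higher level at D8 than at D4. PTGDS, a prostaglandin D synthase, had 2.18, 4.83, 5.17 and 4.42. Its calls against D0 were all lost with a pseudocount of 1 (0.87 at D2, 0.95 at D4 and 0.77 at D8).

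Other partners of RXR were measured in 9 genes, and 5 passed the filter. THRB, a thyroid hormone receptor, stood out with an FPKM of 0.320 (D0), 1.15 (D2), 2.46 (D4) and 1.29 (D8), highest at D4 like PPARG. With a pseudocount of 1, its only remaining call was that of D4 against D0. NR1H3 (LXR alpha), an oxysterol receptor that also binds DNA with RXR, was more abundant, with 13.7, 19.6, 27.7 and 21.1. Its only call, between D4 and D0 (log2 ratio 1.01), was lost after median-ratio scaling (0.96) and with a pseudocount of 1 (0.96). RARA, a retinoic acid receptor, had 2.08, 2.07, 3.24 and 1.45, and NR1H2 (LXR beta) had 15.2, 13.1, 10.5 and 12.7. The summed RXR level was near that of NR1H3 at D0 (14.6) and below it in the 3 later libraries (15.1, 17.4 and 9.24).

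The other coregulators that passed the filter were rarely called. Some that did not pass were called, and their counts are set beside the shares of all mRNAs. Of 21 measured, 12 passed the filter, and none was called in the 3 comparisons with D0 or between D4 and D2, while 1, the deacetylase SIRT1 (named after its values were seen), was called lower between D8 and D4 (log2 ratio -1.07), a call lost after median-ratio scaling (-0.86) and with a pseudocount of 1 (-0.74). Over all 21, 3 were higher and 1 lower between D4 and D0, beside 17.6% and 14.7% of all mRNAs. Between D8 and D4, 4 were lower, beside 16.7%. The counts of 3 and 4 were near those shares. Those higher, named after their values were seen, were LPIN1, a phosphatidate phosphatase that also acts as a coactivator, at 0.267 (D0), 0.820 (D2), 4.03 (D4) and 1.57 (D8), and the PPARG coactivators PPARGC1A, at 0.0403, 0.357, 0.355 and 0.0605, and PPARGC1B, at 0.311, 0.795, 1.24 and 0.297. NRIP1, a ligand-dependent corepressor, had an FPKM of 1.13 (D0), 2.04 (D2), 2.27 (D4) and 1.39 (D8). HDAC3, the deacetylase of the NCOR complexes, had 10.5, 13.4, 17.8 and 10.1. TBL1X, another subunit of those complexes, had 4.84, 3.86, 2.94 and 2.84, and CITED2, a p300-binding protein, had 15.2, 8.92, 8.10 and 10.6. Over the 12 genes, the median log2 ratio was -0.01 between D4 and D0, beside 0.06 for all reliably expressed mRNAs, and -0.42 between D8 and D0, beside -0.18.

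Upstream of PPARG, 14 activators were measured and 9 passed the filter. Between D2 and D0, 5 were called higher and none lower (median 1.09 beside -0.03 for all reliably expressed mRNAs), and between D8 and D4, 5 were called lower and none higher (median -1.28 beside -0.21). Over all 14, 6 were higher and none lower between D2 and D0 (median 0.58), beside 12.6% and 17% of all mRNAs. Between D8 and D4, 8 were lower (median -1.32), beside 16.7%. CEBPA, which maintains PPARG expression in fat cells, had an FPKM of 15.4 (D0), 95.3 (D2), 162 (D4) and 37.1 (D8). KLF9 had 8.67, 55.4, 74.8 and 28.2, KLF15 had 0.657, 5.20, 5.39 and 1.20, and EBF1 had 4.51, 28.2, 35.2 and 7.66. These 4, chosen for their difference between D4 and D0, had their highest level at D4, while CEBPD, named after its values were seen, was highest at D2 (140, 299, 178 and 165). Each of the 4 was lower at D8 than at D4 by a larger log2 ratio than PPARG (-1.41 for KLF9 to -2.20 for EBF1). The D4 library entered both their choice and this comparison. Of the other activators that passed the filter, CEBPB (-1.28) also was, while STAT5B (-0.77), STAT5A (-0.67), NR3C1 (-0.62) and CEBPD (-0.11) were lower by less than PPARG.

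Of 12 inhibitors of PPARG expression or activity, 8 passed the filter, and 3 were called higher and none lower between D4 and D0. Over all 12, 3 were higher and 1 lower, beside 17.6% and 14.7% of all mRNAs. The lower one was KLF2 (0.507 at D0 and 0.149 at D4), named after its values were seen. SMAD3, which carries the TGF-beta signal, had an FPKM of 4.17 (D0), 8.75 (D2), 18.0 (D4) and 3.21 (D8), and it too was highest at D4. FOXO1 had 2.42, 4.96, 7.23 and 3.29, TCF7L2 had 1.32, 2.94, 3.57 and 1.73, and WWTR1 (TAZ) had 5.25, 6.09, 9.12 and 8.0. The call of TCF7L2 between D4 and D0 was lost with a pseudocount of 1 (log2 ratio 0.98). Activators and inhibitors thus both held genes with their highest level at D4, as did 37.3% of all reliably expressed mRNAs. The choice of genes by their difference between D4 and D0 favours such genes. Of the inhibitors that passed the filter, DDIT3 was highest at D8 (144), KLF3 at D0 (2.83) and the rest at D4. The median between D4 and D0 was 1.10 for activators and 0.59 for inhibitors with the filter, and 1.68 and 0.17 over all measured genes.

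PPARG target genes had the highest median between D4 and D0 of the 7 lists, 4.14 over the 14 that passed the filter. All 19 measured targets were called higher between D4 and D0 without the expression filter, where 17.6% of all 16192 mRNAs were, with a median log2 ratio of 4.16 beside 0.05 for all mRNAs. Between D2 and D0 and again between D4 and D2, 17 of 19 were called higher, beside 12.6% and 12.4%, and none lower, beside 17% and 6.26%. Between D8 and D4, 1 was called higher and 6 lower, beside 11% and 16.7%. At D8 16 of 19 were still called above D0, beside 10.5%. PLIN1, which coats lipid droplets, had an FPKM of 2.28 (D0), 36.1 (D2), 215 (D4) and 90.3 (D8). ADIPOQ, the hormone adiponectin, had 3.80, 29.6, 179 and 158, and LIPE, hormone-sensitive lipase, had 0.808, 7.15, 31.9 and 10.3. SLC2A4, the insulin-responsive glucose transporter, had 0.0924, 1.53, 8.80 and 7.58.

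At D8 the targets did not share a direction. PNPLA2, the adipose triglyceride lipase, was 2.70 (D0), 8.95 (D2), 17.9 (D4) and 7.14 (D8), and with PLIN1 and LIPE it was called lower between D8 and D4. FABP4, the adipocyte fatty acid binding protein, was 77.5, 201, 853 and 1557, and CIDEA, a lipid droplet protein, was 2.75, 9.74, 40.2 and 54.3. CIDEC, a lipid droplet fusion protein named after its values were seen as the target called higher at that step, was 0.271, 0.780, 5.01 and 54.6. SCD, the stearoyl-CoA desaturase, was 31.5, 249, 1053 and 772, and CD36, a fatty acid transporter, was 3.90, 20.5, 63.1 and 54.7. Neither was called between D8 and D4. LPL, the lipoprotein lipase, had 19.2, 94.7, 249.8 and 142, ACSL1, an acyl-CoA synthetase, had 10.7, 57.8, 219 and 128, and GPD1, which makes glycerol 3-phosphate, had 0.787, 5.08, 15.4 and 15.9. PCK1, also named after its values were seen, had 1.40, 5.19, 9.39 and 1.06, so that its D8 level was not called against D0 (log2 ratio -0.39).

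Genes known as PPARA and PPARD targets, mostly of fatty acid oxidation, were less uniform. Of 19 measured, 16 passed the filter, and between D4 and D0 7 were called higher and 1 lower, with a median of 0.51 beside 0.06 for all reliably expressed mRNAs. Over all 19, 8 were higher and 1 lower, beside 17.6% and 14.7% of all mRNAs, with a median of 0.41. FABP3 had the highest level, an FPKM of 153 (D0), 638 (D2), 3254 (D4) and 3805 (D8). PDK4, which inhibits pyruvate dehydrogenase, had 0.153, 1.62, 1.97 and 1.91, and ACAA1, a peroxisomal thiolase, had 8.59, 28.1, 71.7 and 41.4. ANGPTL4, a secreted inhibitor of LPL, had 19.2, 72.2, 57.1 and 8.59, above D0 at D2 and D4 and below it at D8. CPT1A, the entry step of mitochondrial oxidation and named after its values were seen as the gene called lower, had 16.7, 10.5, 6.67 and 4.97.

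**Figure D5:**
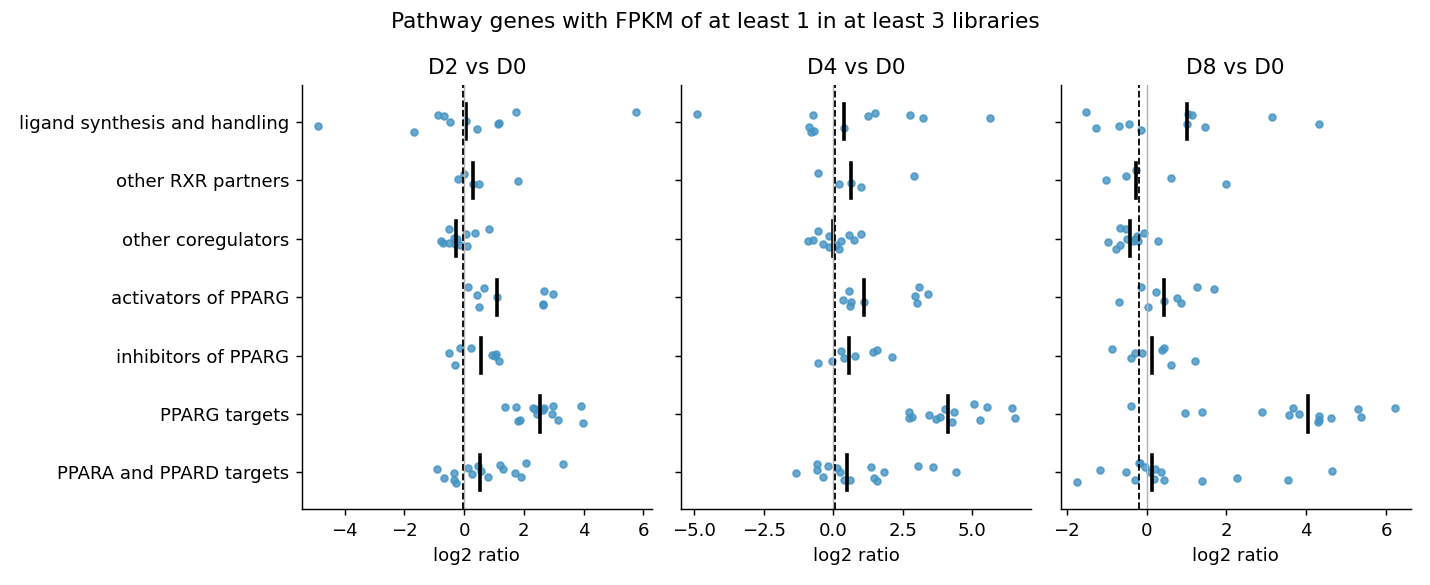
Log2 ratios against D0 of the genes of each list that passed the expression filter, 1 point per gene, with a black bar at the list median and a dashed line at the median of all reliably expressed mRNAs. PPARG targets lie to the right in all 3 panels apart from 1 gene (PCK1, -0.39) between D8 and D0, while the other coregulators that passed the filter lie within 2-fold of D0.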

How the data were processed

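Total RNA of 3 piglets was pooled per stage, depleted of rRNA and made into 1 strand-directional library for Illumina sequencing. The authors aligned reads to Sus scrofa 11.1 with HISAT2 2.0.5 and deposited FPKM for genes. For circRNAs they used BWA-MEM and CIRI with at least 2 junction reads, and deposited SRPBM, a signal of junction reads scaled by mapped reads, in the same column. The tool that counted fragments is not given in the sources used here.

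From these values, fragments were recovered as whole numbers (tolerance 0.001). Library totals came from small single-exon genes, of which 93.4% to 94.9% came out whole, and every SRPBM value gave whole junction reads. Each gene's fragment number is the smallest solution and may be a whole fraction of the true one, as for PPARD, so its intervals may be too wide. Intervals (95%) are exact Poisson for levels and exact binomial for ratios, and cover counting error only. SciPy 1.17.1 and pandas 2.3.3 were used, and recovery was tested on simulated data. With 1 library per stage, no test between stages was made.

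The members and lists were chosen with earlier results of these data known. Named are all members; per list, the 4 reliably expressed genes with the largest absolute log2 ratio between D4 and D0 and those 2-fold different from D0 at all 3 later stages; the 3 nearest genes per member; and circRNAs with at least 10 reads in 1 library. Of the marker genes only some are printed, and 1 gene that the rule names is not reported here. CYP26B1, HPGDS, NR1I2, NR1I3, NR4A1, RARG, MRAP, OLR1, FGF21, VNN1, DLK1, MYF5, MYOD1, PAX7, KRT14 and SOX10, also on the lists, were not analysed here. Alternatives were pseudocounts of 0.1 and 1, median-ratio scaling, scaling to the summed FPKM of mRNAs, no expression filter, a fold of 1.5, scaling by junction reads, circRNAs on either strand and Pearson distance. The counts of lists with a 0 set to 3 fragments were added after seeing the data.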

Additional observations from a re-analysis of the deposited data

How the results depend on the processing

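With a pseudocount of 1, 1 member rather than 2 was called between D2 and D0, since PPARD was lost. With a fold of 1.5 in place of 2, 5 members rather than 0 were called between D4 and D2, 7 rather than 3 between D8 and D4, 5 rather than 3 between D4 and D0 and 4 rather than 1 between D8 and D0. No call changed direction under the alternatives run. Between D8 and D4, median-ratio scaling and a pseudocount of 1 each left 2 of the 3 calls, without PPARG. Median-ratio scaling moved log2 ratios by 0.21 between D8 and D4 and by 0.16 between D8 and D0, and scaling to the summed FPKM of mRNAs moved those between D2 and D0 by 0.11. D4 was the highest library for 6 of 8 members under both scalings. Without the expression filter the calls over all mRNAs were 4793, 3020, 4480, 5221 and 3510 of 16192 in the 5 comparisons, in the order of the report, instead of 1545, 467, 1335, 1768 and 669 of 9191, and the calls of members stayed at 2, 0, 3, 3 and 1. Without the filter and with a 0 set to 3 fragments, 24 medians of the lists moved by more than the counting interval of a typical gene and 11 did not. Several calls of single list genes, close to 2-fold or at low FPKM, were lost with a pseudocount of 1 or another scaling. No paired analysis was possible because each stage has 1 library, and for the same reason no library could be left out of a stage.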
